A study of Mus musculus with 6 samples.

Results

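The genes of the respiratory chain and ATP synthase were followed in bulk RNA of small-intestinal group 3 innate lymphoid cells (ILC3s), gut lymphocytes that secrete IL-17 and IL-22. Members were picked by symbol from the deposited count table: the Ndufa, Ndufb, Ndufc, Ndufs and Ndufv genes of complex I without the Ndufaf assembly factors, Sdha to Sdhd of complex II, the Uqcr genes and Cyc1 of complex III, cytochrome c (Cycs), Cox4 to Cox8 genes of complex IV, Atp5 genes of complex V without Atp5s and Atp5sl, and the protein genes of mitochondrial DNA. This gave 100 of the 25075 rows, 87 encoded in the nucleus and 13 in mitochondrial DNA, after 10 pseudogene rows with names ending in -ps were left out. Ndufa4 and Ndufa4l2, which carry complex I names, were placed with complex IV, where the Ndufa4 protein is known to sit.

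The chain passes electrons from NADH (complex I) and succinate (complex II) through ubiquinone to complex III, from there by cytochrome c to complex IV and oxygen, and complexes I, III and IV pump protons across the inner mitochondrial membrane. ATP synthase, also called complex V, lets the protons back through its rotating c ring and makes ATP in its F1 head. Complex II is built from nuclear genes alone, while the other complexes join nuclear subunits to a few made inside the organelle from mitochondrial DNA, whose transcripts are long precursors cut into separate messages. In lymphocytes the chain serves ATP supply and the regeneration of oxidised cofactors for growth.

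The labels gave 2 groups of 3 biological replicates, all on a b6 strain background and all with floxed Batf alleles: Batf fl/fl, PLZF-Cre- mice (labelled control) and Batf fl/fl, PLZF-Cre+ mice (labelled Batf-deficient). PLZF is the product of Zbtb16, and a Cre under its control acts in cells that express it or descend from cells that did, among them precursors of innate lymphoid cells. The Cre itself was present in 1 group alone, so its own effects and the loss of Batf cannot be told apart. Ages of the animals were not given in the sources used here. Each sample held 2000 sorted cells that were lineage-negative, CD90.2-positive and KLRG1-negative, and 2 ng of RNA went into Smart-seq2, a full-length cDNA method without molecular identifiers, so that counts are reads and not molecules.

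Batf, the deleted transcription factor, was examined first. It stood at 15.1, 15.3 and 18.9 CPM in the labelled control and 38.2, 41.2 and 41.2 CPM in the labelled Batf-deficient ones (CPM, counts over TMM-scaled library totals), so that the target was higher where the label has it deleted (edgeR log2 fold change 1.29 ± 0.16 SE, adjusted p = 1.70e-05). The sign turned to -1.16 when libraries were scaled on 22 lymphocyte genes. That panel scaling moves all genes down together, to a median log2 fold change of -2.43 over all genes, so smaller rises turn negative by its construction. The table does not show which exons of Batf were read. Library totals ran from 8228513 to 17334207 counts, where 3 counts equal 0.155 to 0.425 CPM. Labelled Batf-deficient replicates 1 and 2 stood apart from the other pairs by their likeness (mean chi-square per gene 1.97, against 16.1 to 27.1 for other pairs of a group). With these 2 summed and counted as 1 sample, 69 nuclear and 8 mitochondrial members were lower, the same counts as with them apart, though Cox4i2 of complex IV was no longer among them.

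The groups also differed in the shares of counts held by markers of cell types. The 27 markers of pancreatic acinar cells held 12.2 to 12.6% of counts in the labelled control libraries and 0.00832 to 0.0104% in the labelled Batf-deficient ones, where 8 of them, Prss1 and Amy2a1 included, were at 0 in every library. The 16 intestinal epithelium markers held 1.59 to 1.70% and 0.0381 to 0.0467%. Markers of B and plasma cells went from 0.972 to 0.991% down to 0.0565 to 0.0636%, with 6 of 8 lower, and those of stroma and endothelium from 0.119 to 0.126% down to 0.00953 to 0.0119%, with 8 of 9 lower. The 11 ILC3 markers, Il23r among them, went the other way, from 0.187 to 0.210% up to 1.18 to 1.26%. So did markers of T cells, from 0.0167 to 0.0205% up to 0.0779 to 0.0887%, with 6 of 8 higher and 1 lower. Of 5 erythrocyte markers, 2 were higher and 2 lower. A list of 9 heat shock genes rose from 0.176 to 0.182% up to 4.73 to 5.06%. The part that these differences have in the member results was not tested. Over all 15261 genes tested, 4612 were higher and 5209 lower in the labelled Batf-deficient libraries (30.2% and 34.1%, or 64.4% in either direction), with a median log2 fold change of 0.02. Scaling on library totals gave 3052 higher and 6477 lower, and scaling on the lymphocyte panel 298 higher and 13302 lower.

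Respiratory chain RNA was lower in the labelled Batf-deficient libraries. The 87 nuclear members together held 1.99, 2.10 and 2.25% of all counts in the labelled control libraries and 0.886, 0.882 and 1.02% in the labelled Batf-deficient libraries, or 2.11 ± 0.133% and 0.928 ± 0.0759% (SD, n = 3 each). The 13 mitochondrial members held 6.54, 7.42 and 6.57% and 3.74, 3.97 and 2.75%. Neither share overlapped between the groups, and the ratio of the group means was 0.439 for the nuclear and 0.509 for the mitochondrial members. These shares need no scaling factor, but a share of a bulk sample falls both with fewer cells of a type and with less RNA per cell, which cannot be told apart. With the acinar rows taken out of the totals the nuclear ratio was 0.385 and the mitochondrial ratio 0.446. Both ratios were bound to drop, since those rows were counted mainly in the labelled control. Any member reads that came from acinar cells stayed in.

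**Figure D1:**
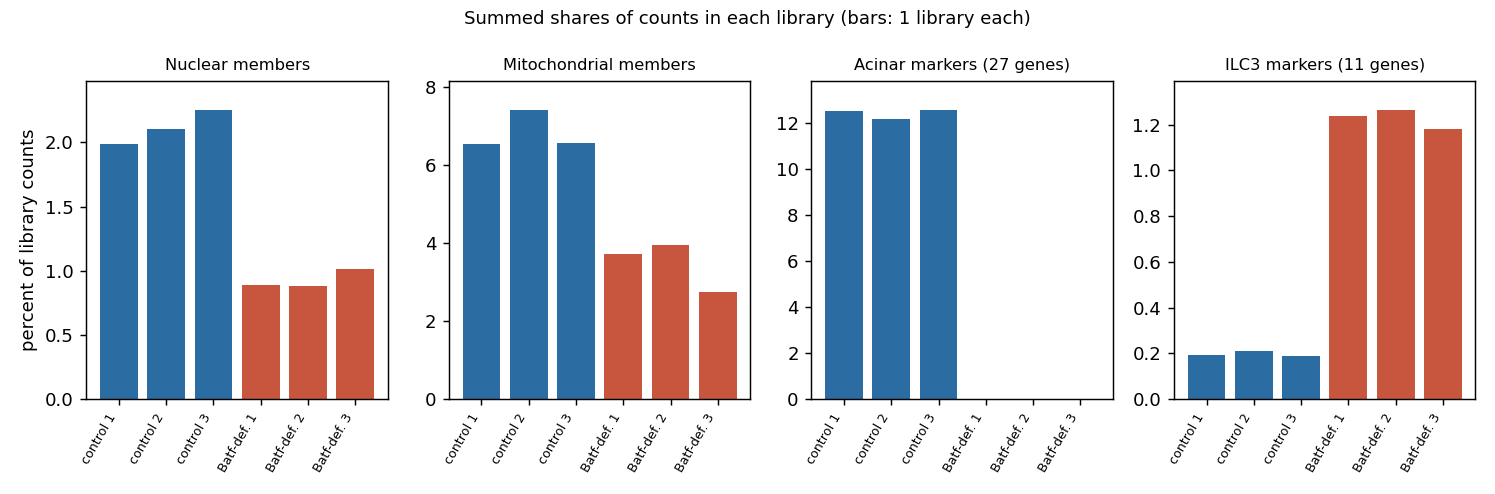
Percent of all counts in each of the 6 libraries held by the nuclear members, the mitochondrial members, 27 acinar marker genes and 11 ILC3 marker genes, 1 bar a library. The nuclear members stand at 1.99 to 2.25% in the labelled control and 0.882 to 1.02% in the labelled Batf-deficient libraries, and the acinar bars, above 12% in the labelled control, are too low to see in the labelled Batf-deficient libraries.

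Gene by gene, 96 members passed the filter on low counts, and 77 of these (80.2%) were lower at an edgeR adjusted p under 0.05, where 34.1% of all genes tested were lower. None was higher, none had a positive fold change at an unadjusted p under 0.05, and DESeq2 and limma voom also called 0 higher, where 30.2% of all genes were. Of the 83 nuclear members tested 69 fell (83.1%), with a median log2 fold change of -0.93, and of the 13 mitochondrial members 8 fell, with a median of -0.68. A fall of at least 2-fold was reached by 42 members, against 26.9% of all genes tested, and in 78 every labelled Batf-deficient library lay below every labelled control library, against 36.5% of all genes. The 4 members under the filter were Cox6a2, Cox6b2, Cox6c2 and Ndufa11b, all with 68 counts or fewer over the labelled control libraries.

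**Figure D2:**
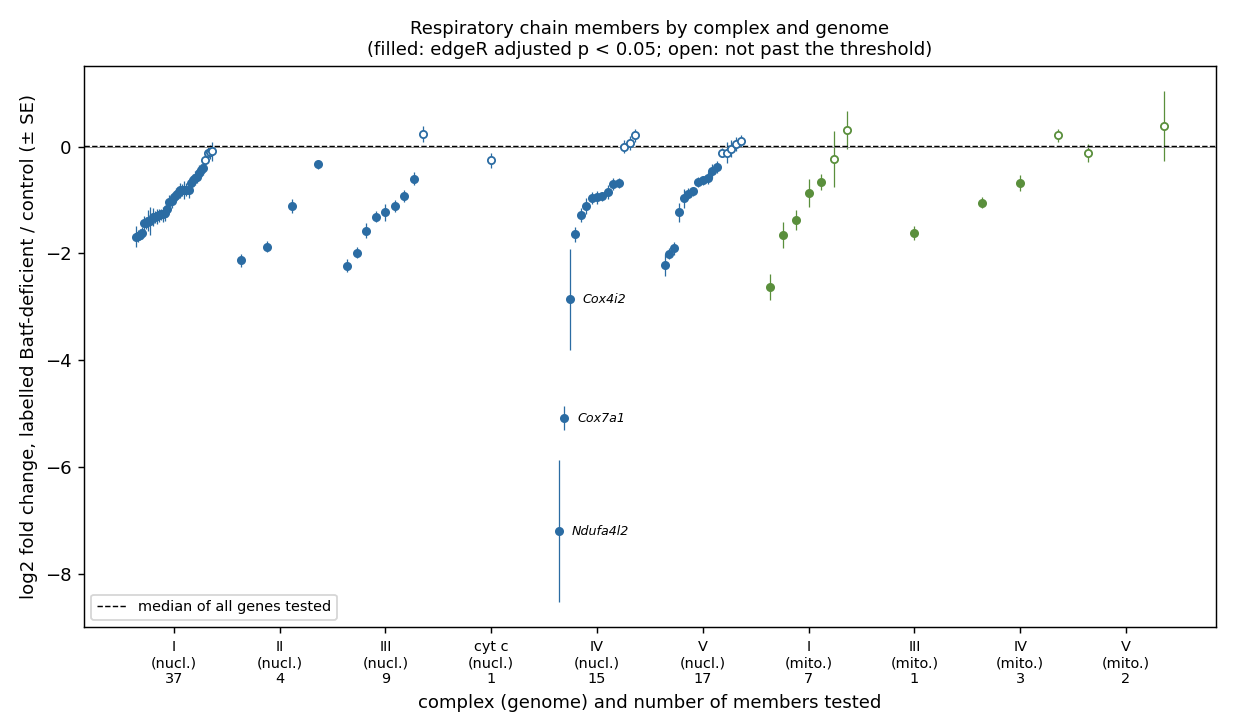
Log2 fold change of each tested member (labelled Batf-deficient over labelled control, bars ± SE of the fit), ordered within its complex and genome; filled points passed an edgeR adjusted p of 0.05. Nearly all points lie below the median of all genes tested (0.02), 77 of 96 are filled and all filled points are negative, with Cox7a1 and Ndufa4l2 of complex IV far below the rest. Ndufa4l2 had 0 counts in every labelled Batf-deficient library, so the height of its point depends on how the fit treats 0 counts. By a floor of 3 counts its fall is at least 12.4-fold.

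Complex I, which takes electrons from NADH, had 37 nuclear members tested, and 33 fell (median log2 fold change -0.95). The 7 core subunits, which carry the flavin and the iron-sulfur clusters, all fell but kept within a narrow band, from -1.27 for Ndufv2 to -0.40 for Ndufs7, with a median of -0.87. Of the 30 accessory subunits tested, 26 fell with a median of -1.10, and 17 of them fell at least 2-fold, against 1 of the 7 core subunits. The difference between core and accessory subunits was not tested. Ndufs1, the largest iron-sulfur subunit, read 78.05, 70.6 and 73.5 CPM in the labelled control and 42.7, 35.01 and 41.3 CPM in the labelled Batf-deficient ones, without overlap (edgeR log2 fold change -0.90 ± 0.12 SE, adjusted p = 4.85e-05). Ndufv1, which binds the flavin and NADH, read 153, 149 and 204 and 89.99, 92.8 and 103 CPM, also without overlap.

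The largest falls among the nuclear genes of complex I were in accessory subunits of the membrane arm. Ndufb9 stood at 267, 267 and 308 CPM in the labelled control and 79.8, 83.9 and 98.98 CPM in the labelled Batf-deficient ones, 3.20-fold lower (edgeR log2 fold change -1.68 ± 0.12 SE, adjusted p = 1.05e-07). Its exons share 201 bases on the same strand with the annotated gene Gm49356, so its reads could be split. Ndufb4c, a gene copy of Ndufb4, was at 41.4, 32.3 and 40.7 and 10.6, 10.1 and 14.5 CPM, a fall of 3.25 times (edgeR log2 fold change -1.68 ± 0.19 SE, adjusted p = 1.03e-05), and reads of the near copies could be exchanged. Both genes showed clear gaps between the groups. Ndufb8, in the same arm, fell by 1.65 on the log2 scale, and Ndufs6, a zinc-binding accessory subunit of the peripheral arm, by 1.62.

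At the other end of complex I, 4 accessory genes did not pass the test and their groups overlapped. Ndufa1, a single-span membrane subunit, read 50.2, 69.2 and 83.9 and 57.9, 61.6 and 71.4 CPM (edgeR log2 fold change -0.09 ± 0.17 SE, adjusted p = 0.66). Ndufa2 read 123, 136 and 174 and 130.5, 128 and 143 CPM (edgeR log2 fold change -0.11 ± 0.13 SE, adjusted p = 0.483). Ndufa7 and Ndufb11 were the other two, at -0.11 and -0.26. The order of the complex I genes therefore changed between groups when levels were set per kilobase of exon. Ndufb9 was the highest nuclear gene of the complex in the labelled control (272 CPM per kb, with Ndufa2 next at 253), while Ndufa2 led in the labelled Batf-deficient libraries (234 CPM per kb, with Ndufa1 next at 152). Ndufa11b, named as a relative of Ndufa11, had 9 counts in 1 labelled control library and 2 in a labelled Batf-deficient one (ratio of scaled counts 2.54, 95% counting interval 0.525 to 24.1).

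Complex II, succinate dehydrogenase, is also an enzyme of the citric acid cycle, and all 4 of its genes fell, by very unequal amounts. Sdha, the flavoprotein that oxidises succinate, read 314, 293 and 295 CPM in the labelled control and 234, 234 and 247 CPM in the labelled Batf-deficient ones, a fall of 1.26-fold without overlap (edgeR log2 fold change -0.33 ± 0.09 SE, adjusted p = 0.00592). Sdhb (chromosome 4 from 140961203 to 140979193, plus strand, mm10), the iron-sulfur subunit, read 278, 278 and 304 and 73.3, 75.96 and 85.2 CPM, 3.67-fold lower (edgeR log2 fold change -1.87 ± 0.10 SE, adjusted p = 1.41e-08). Per kilobase of exon, Sdhb stood above Sdha in the labelled control (128.04 and 72.9 CPM per kb) and below it in the labelled Batf-deficient libraries (34.9 and 57.8 CPM per kb). Sdhd (chromosome 9 from 50596357 to 50603812, minus strand), a membrane anchor, read 112, 119.6 and 108 and 25.6, 24.2 and 27.7 CPM, 4.39-fold lower (edgeR log2 fold change -2.13 ± 0.12 SE, adjusted p = 1.39e-08). Sdhc, the other anchor, fell by 1.11 on the log2 scale. 

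The unequal fall within complex II was measured as a ratio inside each library, which no scaling can move. The log2 ratio of Sdhb over Sdha was -0.17, -0.08 and 0.04 in the labelled control and -1.67, -1.62 and -1.54 in the labelled Batf-deficient libraries, a difference of -1.54 without overlap. For Sdhd over Sdha it was -1.48, -1.29 and -1.44 and -3.19, -3.27 and -3.16, a difference of -1.80. Each gave a two-sided exact permutation p of 0.1, the smallest that 3 samples against 3 allow, and 0.108 after adjustment over the 13 ratios computed in all. The pairs were chosen after the values were seen, so these ratios are descriptions.

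Complex III passes electrons from ubiquinol to cytochrome c, and 8 of its 9 nuclear genes fell (median log2 fold change -1.23). Uqcr11 (chromosome 10 from 80402997 to 80406830, minus strand), a small supernumerary subunit, read 289.9, 295 and 349.6 CPM in the labelled control and 58.2, 64.3 and 76.02 CPM in the labelled Batf-deficient ones, 4.71-fold lower (edgeR log2 fold change -2.23 ± 0.13 SE, adjusted p = 1.89e-08). Cyc1 (chromosome 15 from 76343523 to 76346260, plus strand), cytochrome c1, the haem subunit that hands electrons on, read 262, 285 and 313 and 75.5, 69.3 and 72.6 CPM, 3.96-fold lower (edgeR log2 fold change -1.99 ± 0.11 SE, adjusted p = 9.94e-09). In both genes the lowest labelled control library was more than 3 times the highest labelled Batf-deficient one. Uqcrfs1, the Rieske iron-sulfur protein, read 263, 288 and 239.7 and 128, 127 and 109 CPM, and fell by 1.12 on the log2 scale. Uqcrc1 and Uqcrc2, the core proteins, fell by 1.32 and 0.93.

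Uqcrh, the acidic hinge subunit that docks cytochrome c1, was the exception. Its levels were 150.4, 188 and 239.5 CPM in the labelled control and 221, 219.5 and 242 CPM in the labelled Batf-deficient ones, and the groups overlapped (edgeR log2 fold change 0.24 ± 0.15 SE, adjusted p = 0.173). Without labelled control replicate 3, its highest control library, it passed the test as higher (0.43, edgeR adjusted p = 0.00944). The log2 ratio of Uqcr11 over Uqcrh went from 0.95, 0.65 and 0.55 to -1.92, -1.77 and -1.67, a difference of -2.50. Per kilobase of exon, Uqcr11 was the highest nuclear gene of complex III in the labelled control (486 CPM per kb) and Uqcrh in the labelled Batf-deficient libraries (184 CPM per kb).

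Cytochrome c, the mobile carrier between complexes III and IV, differed from cytochrome c1. Cycs (chromosome 6 from 50562563 to 50566538, minus strand) read 78.8, 97.3 and 96.96 CPM in the labelled control and 79.6, 85.5 and 63.9 CPM in the labelled Batf-deficient ones, with overlap (edgeR log2 fold change -0.26 ± 0.14 SE, adjusted p = 0.118). In log2 ratio, Cyc1 over Cycs was 1.73, 1.55 and 1.69 and -0.08, -0.30 and 0.18, a difference of -1.72 without overlap. Cyc1 therefore outnumbered Cycs about 3-fold in counts in the labelled control and came level with it in the labelled Batf-deficient libraries.

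Complex IV, cytochrome c oxidase, reduces oxygen to water, and 12 of its 15 nuclear genes tested fell (median log2 fold change -0.95). The ubiquitous forms made up nearly all of its counts. Cox4i1, the main form of the regulatory subunit 4, read 1095, 1160.3 and 1215 CPM in the labelled control and 580.4, 619 and 622 CPM in the labelled Batf-deficient ones (edgeR log2 fold change -0.93 ± 0.09 SE, adjusted p = 1.40e-06). Cox5b and Cox5a, matrix-side subunits, fell by 1.11 and 0.68, and Cox6b1, which bridges the dimer, by 0.95. Cox6a1, Cox7b and Cox7c also fell, by 0.70, 0.97 and 0.86. Ndufa4 read 184, 250.03 and 234 and 85.7, 85.5 and 103 CPM and fell by 1.28. The groups did not overlap in any of these 8 genes.

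Subunit 7a has a form known from heart and skeletal muscle, Cox7a1, and a widespread form, Cox7a2, and the first showed the largest fall of a member above 10 CPM. Cox7a1 (chromosome 7 from 30184144 to 30186078, plus strand) read 39.5, 40.02 and 46.8 CPM in the labelled control and 1.24, 1.13 and 1.28 CPM in the labelled Batf-deficient ones, 34.5-fold lower (edgeR log2 fold change -5.09 ± 0.22 SE, adjusted p = 1.68e-09). Cox7a2 read 189.8, 255 and 259.8 and 74.2, 67.6 and 83.9 CPM, 3.12-fold lower (edgeR log2 fold change -1.64 ± 0.14 SE, adjusted p = 6.63e-07). Both gaps were wide, but the muscle form fell further: its share of the pair's counts was 17.2, 13.6 and 15.3% in the labelled control and 1.65, 1.65 and 1.51% in the labelled Batf-deficient libraries. Cox7a2l, a relative that takes part in supercomplexes of III and IV, read 108, 109.5 and 143 and 130.2, 129 and 117 CPM with overlap (edgeR log2 fold change 0.06 ± 0.13 SE, adjusted p = 0.682). The log2 ratio of Cox7a2 over Cox7a2l thus moved by -1.71, from 0.81, 1.22 and 0.86 to -0.81, -0.94 and -0.49.

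The other forms of complex IV known from muscle, testis or hypoxic cells had few counts, and of these only Ndufa4l2 and Cox4i2 passed the filter and could be tested. Ndufa4l2, the hypoxia-linked relative of Ndufa4, had 22, 25 and 19 counts in the labelled control libraries and 0 in each labelled Batf-deficient library, which makes it at least 12.4-fold lower by a floor of 3 counts over the group. Cox4i2, the hypoxia-linked form of subunit 4, had 80 counts in the labelled control and 7 in the labelled Batf-deficient group, all in replicate 3 (ratio of scaled counts 6.44, 95% counting interval 2.99 to 16.5). Its call rested on replicates 1 and 2, both at 0: without either of them or with them summed the edgeR adjusted p was 0.0817 to 0.0841. Cox6a2, the muscle form of subunit 6a, had 32 counts against 1 (ratio 18.04, interval 3.01 to 734). Cox6b2, the testis form of subunit 6b, had 68 against 2, with 52 of the 68 in labelled control replicate 3. Cox6c2, with 2 counts in all, gave no ratio. Counting intervals cover counting error only.

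Most markers on a list of smooth and striated muscle were lower as well. The list held 0.0183 to 0.0211% of counts in the labelled control and 0.00105 to 0.00117% in the labelled Batf-deficient libraries, 7 of its 8 tested genes were lower, and Des, the intermediate filament of muscle, was at 0 in every labelled Batf-deficient library. Of the striated muscle genes, Acta1, skeletal actin, fell (44.9, 41.4 and 56.7 CPM in the labelled control and 5.53, 5.81 and 4.90 CPM in the labelled Batf-deficient ones). Ckm, muscle creatine kinase, read 0.658, 0.343 and 1.24 and 0.553, 1.42 and 1.93 CPM with overlap (edgeR log2 fold change 0.80, adjusted p = 0.333), and Tnnt3, fast troponin T, had too few counts to be tested (at most 0.401 CPM in any library). The part of these markers in the levels of Cox7a1, Cox6a2 and Cox4i2 was not tested.

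Cox8a and Cox6c did not pass the test. Cox8a, a small membrane subunit, read 333, 388 and 475 CPM in the labelled control and 391, 384 and 419.7 CPM in the labelled Batf-deficient ones (edgeR log2 fold change 0.00 ± 0.12 SE, adjusted p = 0.987). Cox6c read 190.03, 247 and 261 and 254, 269.8 and 286 CPM (edgeR log2 fold change 0.21 ± 0.12 SE, adjusted p = 0.144). The labelled Batf-deficient values of Cox8a lay inside the control range, and those of Cox6c at its upper end and above. Cox6c shares 250 exon bases with Vps13b on the opposite strand. Without labelled control replicate 3 it passed the test as higher, at 0.31 with an edgeR adjusted p of 0.0494. Per kilobase Cox4i1 was the highest complex IV gene of the nucleus in the labelled control (746 CPM per kb), and Cox8a in the labelled Batf-deficient libraries (643 CPM per kb, as against 644 in the labelled control).

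Complex V, ATP synthase, had the smallest fall of the nuclear complexes by median (-0.63), with 12 of 17 genes lower. The catalytic head fell by modest amounts: Atp5b, the beta subunit, read 1436, 1459 and 1596 CPM in the labelled control and 832, 821 and 866 CPM in the labelled Batf-deficient ones (edgeR log2 fold change -0.83 ± 0.08 SE, adjusted p = 3.22e-06). Atp5a1, the alpha subunit, read 868, 835 and 907 and 563, 534 and 587 CPM and fell by 0.63. In the central stalk, Atp5c1, the turning gamma subunit, read 457, 472 and 444 and 421, 433 and 411 CPM; its groups did not overlap but it did not pass the test (edgeR log2 fold change -0.12 ± 0.08 SE, adjusted p = 0.238). Atp5d and Atp5e, the delta and epsilon subunits, fell by 0.66 and 0.45.

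The peripheral stalk, which keeps the head from turning, held genes at both ends of the range. Atp5o, the OSCP subunit, read 441, 441 and 478 CPM in the labelled control and 111, 106 and 122 CPM in the labelled Batf-deficient ones, 4.02-fold lower (edgeR log2 fold change -2.01 ± 0.10 SE, adjusted p = 4.86e-09). Atp5h, subunit d of the same stalk, read 220.4, 257 and 283 and 262, 256 and 299 CPM with overlap (edgeR log2 fold change 0.10 ± 0.11 SE, adjusted p = 0.445). As a log2 ratio, Atp5o over Atp5h was 0.999, 0.78 and 0.76 and -1.24, -1.27 and -1.29, a difference of -2.12. Atp5o shares 287 exon bases on the same strand with Donson, so some of its reads could be counted to either gene. Atp5pb (subunit b) and Atp5j (subunit F6) fell by 0.38 and 0.88.

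The small membrane subunits were as mixed. Atp5k, subunit e, which helps ATP synthase form dimers, read 57.8, 74.5 and 99.1 CPM in the labelled control and 14.2, 15.3 and 19.6 CPM in the labelled Batf-deficient ones, 4.71-fold lower (edgeR log2 fold change -2.23 ± 0.21 SE, adjusted p = 1.52e-06). Atp5l, subunit g, its partner in the dimer, read 143, 165 and 211 and 173, 172 and 192 CPM (edgeR log2 fold change 0.05 ± 0.14 SE, adjusted p = 0.762). Atp5l is overlapped by an antisense gene over 133 exon bases. Its groups overlapped, as did those of Atp5md (log2 fold change -0.04), while Atp5j2 and Atp5mpl fell by 1.23 and 0.97.

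The c ring shows the sharpest contrast within 1 protein. Atp5g1, Atp5g2 and Atp5g3 are known to encode the same mature c subunit behind different import signals, so that differences between them are differences of the genes and not of the ring. Their mm10 positions are chromosome 11 from 96068852 to 96075670, chromosome 15 from 102662864 to 102672352 and chromosome 2 from 73908447 to 73911326, all on the minus strand. The sequences before their RefSeq starts that lie in no annotated exon, from the RefSeq promoter table (GRCm38.p6), are printed 5′ to 3′ on the minus strand because the 3 genes behaved differently. Capitals mark matches of the NRF1 motif (GCGCA, any base, then GCGC) in Atp5g2 and of AAGGTCA (ERR, which reads TGACCTT on the other strand) in Atp5g3, the only matches of the 4 motifs described further on in the 250 bases before these starts. The RefSeq start of Atp5g2 lies inside the span of 1 longer annotated transcript, so both of its stretches lie within the annotated gene.
Atp5g1, chr11:96075671-96075881: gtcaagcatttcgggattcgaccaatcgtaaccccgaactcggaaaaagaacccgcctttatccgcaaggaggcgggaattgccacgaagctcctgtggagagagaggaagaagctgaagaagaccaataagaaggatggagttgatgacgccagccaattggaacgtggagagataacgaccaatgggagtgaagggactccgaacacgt
Atp5g2, chr15:102671128-102671297: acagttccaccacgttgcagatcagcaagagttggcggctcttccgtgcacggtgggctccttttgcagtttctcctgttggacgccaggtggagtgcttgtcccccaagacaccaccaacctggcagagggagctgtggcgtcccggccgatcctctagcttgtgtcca
Atp5g2, 30 bases around its match, chr15:102671070-102671099: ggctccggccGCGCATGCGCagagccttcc
Atp5g3, chr2:73911327-73911576: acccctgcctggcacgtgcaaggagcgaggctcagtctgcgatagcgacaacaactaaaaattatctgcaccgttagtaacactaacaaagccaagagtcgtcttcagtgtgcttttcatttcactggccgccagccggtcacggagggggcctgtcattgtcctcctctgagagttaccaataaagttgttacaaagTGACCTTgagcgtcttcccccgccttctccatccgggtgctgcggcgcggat

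Of the 3 genes, Atp5g1 fell most. It read 284, 313 and 349.98 CPM in the labelled control and 83.1, 72.3 and 96.6 CPM in the labelled Batf-deficient ones, 3.76-fold lower (edgeR log2 fold change -1.91 ± 0.13 SE, adjusted p = 8.34e-08). Atp5g3 read 285, 359 and 375 and 228, 223 and 228 CPM (edgeR log2 fold change -0.58 ± 0.11 SE, adjusted p = 6.55e-04). Neither overlapped between the groups. Atp5g2 read 83.2, 128 and 104 and 85.3, 79.2 and 126 CPM, with overlap (edgeR log2 fold change -0.11 ± 0.19 SE, adjusted p = 0.623). The share of Atp5g1 among the 3 genes' counts was 43.5, 39.2 and 42.2% in the labelled control and 20.9, 19.3 and 21.4% in the labelled Batf-deficient libraries. Atp5g2 took 12.8, 15.96 and 12.6% and 21.5, 21.1 and 27.97%, and Atp5g3 43.7, 44.9 and 45.2% and 57.5, 59.6 and 50.6%. The log2 ratio of Atp5g1 over Atp5g2 differed by -1.79 and that of Atp5g1 over Atp5g3 by -1.34, both without overlap, while Atp5g3 over Atp5g2 differed by -0.45 with overlap (exact permutation p = 0.2).

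**Figure D3:**
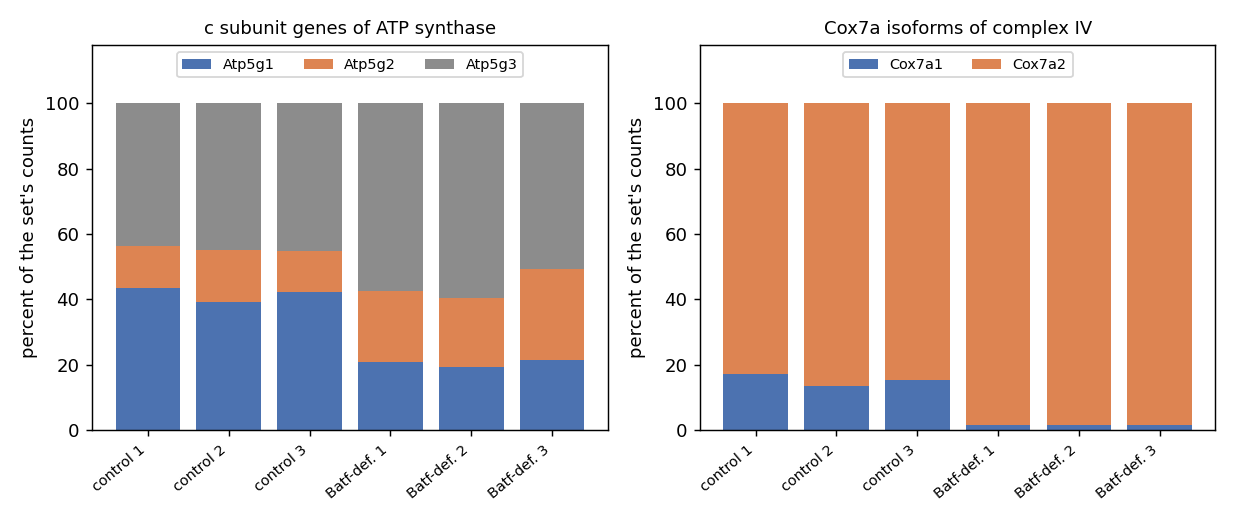
Percent of the set's counts taken by each gene in each of the 6 libraries, on the left for the c subunit genes Atp5g1, Atp5g2 and Atp5g3 and on the right for Cox7a1 and Cox7a2. Atp5g1 takes 39.2 to 43.5% in the labelled control and 19.3 to 21.4% in the labelled Batf-deficient libraries, and the strip of Cox7a1 shrinks from a mean of 15.4% to 1.60%.

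The fall was spread unequally over the complexes. Within the counts of the nuclear members, complex III took 13.4, 12.9 and 13.3% in the labelled control and 10.3, 10.4 and 10.4% in the labelled Batf-deficient libraries, and complex II 4.60, 4.22 and 3.99% and 3.64, 3.63 and 3.62%. Complex I went from a mean of 25.4% to 23.5%. Complex V took the larger share in exchange, 34.4, 34.1 and 33.4% and 37.8, 37.4 and 37.2%, and complex IV went from 22.6% to 24.3%. None of the 5 shares overlapped between groups.

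Mitochondrial DNA encodes 7 subunits of complex I, cytochrome b of complex III, 3 catalytic subunits of complex IV and 2 of complex V, all with the prefix mt-. Of these, 5 of 7 fell in complex I, 1 of 1 in complex III, 2 of 3 in complex IV and 0 of 2 in complex V. After mt-Nd6, the largest fall was in mt-Nd2, at 1171, 1526 and 1233 CPM in the labelled control and 459.6, 523 and 266 CPM in the labelled Batf-deficient ones (edgeR log2 fold change -1.65 ± 0.24 SE, adjusted p = 4.82e-04). mt-Cytb (M 14145 to 15288, plus strand) read 11575, 13490.00 and 11087 and 4238, 4448 and 3094 CPM, 3.07-fold lower (edgeR log2 fold change -1.62 ± 0.13 SE, adjusted p = 7.08e-07). In both, the lowest control library was more than 2 times the highest labelled Batf-deficient one. mt-Nd4 read 5035, 5769 and 4308 and 2128, 2304 and 1372 CPM and fell by 1.38, mt-Nd5 1612, 1767 and 1533 and 1139.6, 1193 and 775 CPM and fell by 0.66. mt-Nd1 read 6339, 7314 and 5741 and 4092, 4341 and 2168 CPM without overlap (edgeR log2 fold change -0.87 ± 0.26 SE, adjusted p = 0.0242), but the adjusted p was 0.053 to 0.0616 without any 1 of the labelled control libraries.

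mt-Nd6 is the only protein gene on the other strand of mitochondrial DNA. It read 382, 515 and 317 CPM in the labelled control and 69.3, 81.9 and 46.4 CPM in the labelled Batf-deficient ones, 6.14-fold lower (edgeR log2 fold change -2.63 ± 0.24 SE, adjusted p = 1.20e-05). Its neighbour mt-Nd5, which overlaps it by 14 bases on the opposite strand, fell less, and the log2 ratio of mt-Nd6 over mt-Nd5 went from -2.08, -1.78 and -2.28 to -4.04, -3.86 and -4.06. The strand setting of the counting was not given in the sources used here, and reads of the opposite strand in the mt-Nd6 row cannot be told apart from its own.

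Other genes of mitochondrial DNA did not differ by the test. mt-Co1 (M 5328 to 6872), the haem-copper subunit of complex IV, read 15426, 15979 and 15548 CPM in the labelled control and 19839.6, 20621 and 13743 CPM in the labelled Batf-deficient ones, with overlap through replicate 3 (edgeR log2 fold change 0.21 ± 0.13 SE, adjusted p = 0.184). Without that replicate mt-Co1 was higher (0.29, edgeR adjusted p = 0.00314), and so was mt-Atp6 (0.73, edgeR adjusted p = 0.03). mt-Atp6, subunit a of ATP synthase, read 1472, 2279 and 2562 and 3146, 4214 and 884 CPM, so that labelled Batf-deficient replicate 3 was the lowest of all 6 libraries and replicates 1 and 2 the highest. mt-Atp8 read 152, 197 and 187 and 178, 194 and 122 CPM, mt-Nd3 57.2, 145 and 153 and 128, 122 and 54.7 CPM, and mt-Nd4l 94.9, 85.5 and 111 and 109, 187 and 67.8 CPM, all with overlap. mt-Atp8 and mt-Atp6 share the 43 bases at M 7927 to 7969, shown because reads there belong to both genes, with no letter in capitals.
mt-Atp8 and mt-Atp6, chrM:7927-7969: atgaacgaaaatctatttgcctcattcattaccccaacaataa

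Part of these rows cannot be separated from a nuclear copy of mitochondrial DNA on chromosome 1 (24611535 to 24616197, mm10). The annotation has 7 pseudogene rows there. Those matching mt-Co2, mt-Atp6, mt-Co3, mt-Nd3, mt-Nd4l and mt-Nd4 are identical over the aligned bases, and Gm29216 differs from mt-Co1 at 1 of 483 bases (A1066T, counted from the 5′ end of mt-Co1, its base first). The table has 6 of the 7 rows, and the copy of mt-Nd4 was not used here. The copy of mt-Atp6 took 80.2, 77.0 and 64.5% of the pair's counts in the labelled control and 61.3, 52.3 and 78.6% in the labelled Batf-deficient libraries. The copy of mt-Nd3 took 69.2, 47.4 and 38.9% in the labelled control but 0, 5.19 and 0% in the labelled Batf-deficient libraries.

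With the copies' counts added, a choice made after the values were seen, 8 of 13 genes were again lower and 0 higher, with a median of -0.66. mt-Co3, the third catalytic subunit of complex IV, read 9374, 11690.1 and 11172 and 5185, 5494 and 4901 CPM as deposited (log2 fold change -1.05), and 17176, 19518 and 18032 and 12513, 13028 and 11180.1 CPM with the copy (edgeR log2 fold change -0.58 ± 0.09 SE, adjusted p = 8.89e-05). Its groups did not overlap either way. mt-Nd3 became 185, 277 and 250.3 and 128, 128 and 54.7 CPM, now without overlap (edgeR log2 fold change -1.20 ± 0.35 SE, adjusted p = 0.0222). mt-Co2, which binds cytochrome c, went from -0.68 (edgeR adjusted p = 0.00157) to -0.27 (edgeR adjusted p = 0.0714) and no longer passed the test. mt-Atp6 and mt-Nd4l turned to -0.22 and -0.25, neither past the threshold, and mt-Co1 went from 0.21 to 0.07, past the threshold in neither.

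**Figure D4:**
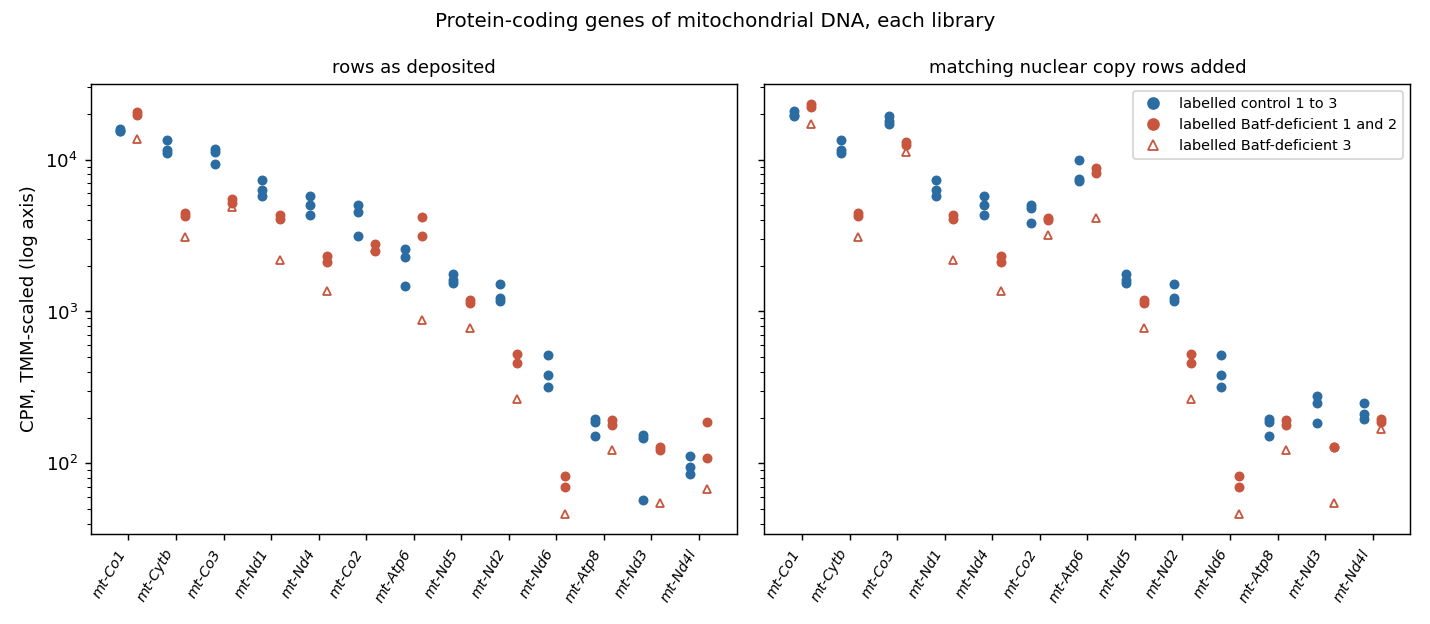
Level of the 13 protein genes of mitochondrial DNA in each library, in CPM after TMM scaling on a log axis, as deposited (left) and with the counts of the matching nuclear copy rows added (right); the open triangle is labelled Batf-deficient replicate 3. The libraries are well apart for mt-Cytb, mt-Nd2, mt-Nd4 and mt-Nd6 in both panels, while the spread of mt-Nd4l narrows on the right to 195 to 249 CPM in the labelled control and 167 to 195 CPM in the labelled Batf-deficient ones.

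Within mitochondrial messages the balance moved towards mt-Co1. Its share of the 13 genes' counts was 27.6, 24.5 and 26.4% in the labelled control and 45.6, 44.6 and 45.7% in the labelled Batf-deficient libraries, or a mean of 25.5% and 37.96% with copies added. The share of mt-Cytb was 20.7, 20.7 and 18.8% and 9.74, 9.62 and 10.3%. Neither share overlapped between groups, and both genes are cut from the precursor of the same strand. In log2 terms the ratio of mt-Cytb over mt-Co1 differed by -1.81, or -1.68 with copies added. Per kilobase mt-Co3 was the highest in the labelled control (13706 CPM per kb) and mt-Co1 in the labelled Batf-deficient libraries (11695 CPM per kb), before copies were added.

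Between the genomes, the counts of the 13 mitochondrial genes were 3.29, 3.53 and 2.92 times those of the nuclear members in the labelled control and 4.22, 4.49 and 2.71 times in the labelled Batf-deficient libraries. The groups overlapped because labelled Batf-deficient replicate 3 had the lowest ratio of all 6 libraries and replicates 1 and 2 the highest. With copies added the ratios were 4.40, 4.67 and 3.70 and 5.78, 6.09 and 3.94, which overlapped as well. Messages of both genomes fell, and for these protein genes the ratio did not differ by more than the spread between libraries. With all mitochondrial rows counted, ribosomal RNA included, the ratio was 3.94, 4.35 and 3.56 in the labelled control. It was 7.44, 8.03 and 4.51 in the labelled Batf-deficient libraries, without overlap.

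Some promoters of nuclear members hold known motifs, which their selection by name did not use, and most hold none of a given motif. In the 250 bases before the start, on both strands, the NRF1 motif was found in 14 of 73 promoters of 68 nuclear members, or 19.2%, and in 3.74% of all 32851 RefSeq promoters. CCGGAAG (ETS factors, the family of GABPA) was found in 16.4% and 6.91%, ATGGCGG (YY1) in 6.85% and 2.21%, and AAGGTCA (estrogen-related receptors, ERR) in 6.85% and 4.08%. NRF1 matched 11 of the 58 promoters of members that fell and 3 of the 14 of members that did not pass the test, ETS matched 9 and 3, ERR 4 and 1, and YY1 2 and 3. Sdhd holds a match each to NRF1 and ETS, Uqcr11 and Uqcrh 1 to ETS each, and Sdha 3 to NRF1. A match is a description of the letters and not a site of binding.

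Genes that build, feed or regulate the chain gave a mixed picture beside the members. The citric acid cycle and pyruvate dehydrogenase fell throughout: 17 of 17 genes were lower, beside 34.1% of all genes (median log2 fold change -0.89). They were led by Idh2 at 86.6, 86.5 and 104 CPM in the labelled control and 15.3, 13.7 and 14.9 CPM in the labelled Batf-deficient ones (edgeR log2 fold change -2.65 ± 0.14 SE, adjusted p = 7.81e-09) and Mdh2 (-1.79). Of 47 assembly factors tested, 16 were lower (34.0%, beside 34.1% of all genes) and 8 higher, where 30.2% of all genes were (median -0.26). Sco2 and Coa3, which serve complex IV, fell (log2 fold changes -2.65 and -1.73). Sdhaf2, which attaches the flavin to Sdha, rose from 15.99, 12.96 and 11.3 to 25.2, 27.6 and 29.3 CPM (log2 fold change 1.04) and Coa5, for complex IV, by 0.65 on the same scale. Both turned negative with panel scaling (-1.41 and -1.80), which moves all genes down together.

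Of 24 genes that copy, transcribe or process mitochondrial RNA, 7 were lower (29.2%, beside 34.1% of all genes) and 2 higher, where 30.2% of all genes were (median -0.31). Tfam, which packages and transcribes mitochondrial DNA, read 21.8, 23.2 and 20.5 CPM in the labelled control and 21.4, 19.3 and 20.95 CPM in the labelled Batf-deficient ones, with overlap (log2 fold change -0.09, edgeR adjusted p = 0.659). Lrpprc and Slirp, partners that stabilise mitochondrial messages, fell: Lrpprc read 40.1, 42.6 and 48.6 and 16.2, 23.8 and 20.1 CPM (-1.13, edgeR adjusted p = 1.03e-04) and Slirp 26.4, 42.1 and 44.7 and 12.03, 14.5 and 10.2 CPM (-1.64, edgeR adjusted p = 5.10e-05). Hsd17b10, a part of mitochondrial RNase P, fell by 0.999 on the log2 scale. Polg2, the accessory subunit of the DNA polymerase, and Mtpap, the poly(A) polymerase, were higher (1.42 and 0.45). With panel scaling, which moves all genes down together, they were negative (-1.03 and -2.005).

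Among 9 nuclear regulators of the chain, 3 fell (33.3%, beside 34.1% of all genes) and 2 rose, shares of the list that are not above those of all genes. Ppargc1a, the coactivator PGC-1alpha, read 15.8, 12.4 and 19.7 CPM in the labelled control and 0.415, 0.142 and 0.241 CPM in the labelled Batf-deficient ones (edgeR log2 fold change -5.88 ± 0.43 SE, adjusted p = 1.74e-07). Ppargc1b, its relative, and Esrra, the receptor ERRalpha that they bind, fell as well (log2 fold changes -1.91 and -2.55). These 3 genes had no overlap between groups, and Ppargc1a was near the floor in the labelled Batf-deficient libraries. Nrf1 and Gabpb1 were higher (0.40 and 1.35). With panel scaling, which moves all genes down together, both turned negative (-2.05 and -1.10).

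In the list of carriers, uncouplers and inhibitors, 6 of 11 genes tested fell (54.5%, beside 34.1% of all genes). Another 2 rose, where 30.2% of all genes were higher. Atpif1, the inhibitor of ATP synthase, read 239, 265 and 345 CPM in the labelled control and 40.4, 36.6 and 50.7 CPM in the labelled Batf-deficient ones (edgeR log2 fold change -2.73 ± 0.16 SE, adjusted p = 3.16e-08), and Vdac1, the outer membrane channel, fell by 1.80. Ucp2, an inner membrane carrier of the uncoupling family that is common in lymphocytes, rose from 681, 619 and 729 to 4398, 4287 and 4323 CPM (edgeR log2 fold change 2.68 ± 0.09 SE, adjusted p = 1.94e-10). Ucp3, known from muscle, was low in the labelled control, at 0.752, 1.94 and 0.0518 CPM, the last below the level of 3 counts. It read 13.7, 15.3 and 12.7 CPM in the labelled Batf-deficient ones (edgeR log2 fold change 3.91 ± 0.72 SE, adjusted p = 8.40e-04). With panel scaling Ucp2 stood at 0.23 (edgeR adjusted p = 0.0403). Ucp3 stood at 1.47 with that scaling and no longer passed the test (edgeR adjusted p = 0.0682).

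Because the groups differed so widely in the shares of cell type markers, the members were also read under other scalings. RLE size factors or TMM without acinar rows moved the nuclear median to -0.97 and -0.93. Library totals moved it to -1.31, beside a median of all genes of -0.36, and the lymphocyte panel to -3.38, beside -2.43. A scaling factor moves all genes of a library together, so the gap between the nuclear members and all genes was bound to stay. It is therefore no check on the differences in cell type markers. With the panel all 96 members tested were lower, where 87.2% of all genes were. With library totals 78 of 83 nuclear and 9 of 13 mitochondrial members tested were lower, where 42.4% of all genes were. For the same reason the order of the complexes by median could change only between near-ties. Complex II was lowest, then III, and V was highest among the nuclear ones under TMM, RLE, library totals and the panel. Complexes I and IV lay close together between III and V and changed places (-0.948 and -0.950 under TMM, -1.3232 and -1.3230 under library totals).

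**Figure D5:**
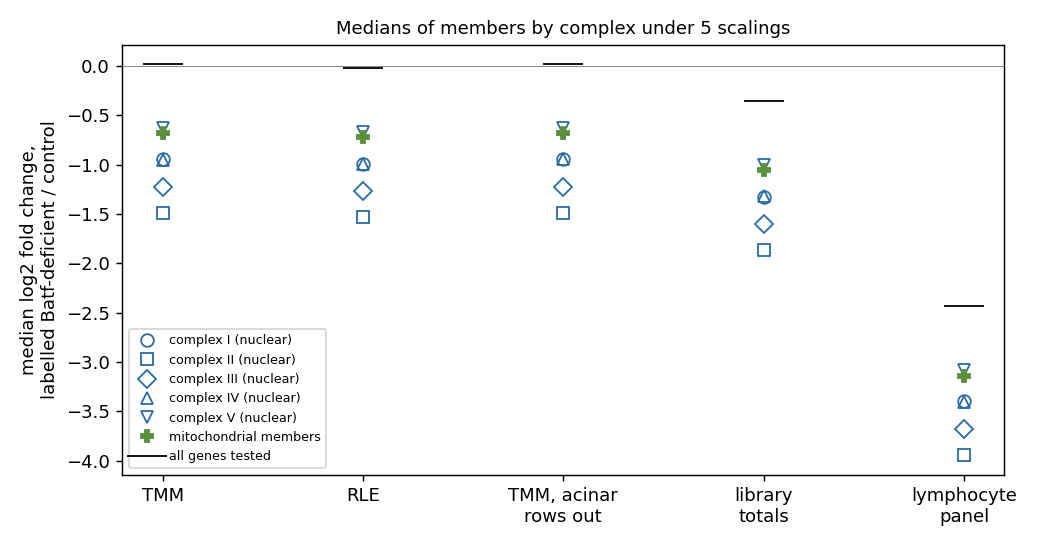
Median log2 fold change (labelled Batf-deficient over labelled control) of the members of each nuclear complex and of the mitochondrial members under 5 scalings, with the median of all genes tested as a black dash. Every member median lies below the dash of its scaling, and the lymphocyte panel moves all medians down together, to -3.38 over all nuclear members and -2.43 over all genes. A scaling moves all genes together, so the distances to the dash could hardly change.

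Reads of other genes could enter or leave some member rows. Exons of 39 of the 98 members found in the annotation overlap another annotated gene. Among the 56 tested members without such an overlap 47 were lower, and among the 38 tested members with such an overlap 29. Processed pseudogenes were counted as well: Cox5b-ps had 237, 347 and 461 counts in the labelled control and 35, 28 and 154 in the labelled Batf-deficient libraries, and it falls in the same direction as Cox5b. The other 9 left-out pseudogene rows had 122 counts or fewer over all 6 libraries.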

How the data were processed

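RNA of 3 labelled control and 3 labelled Batf-deficient samples was measured. The authors deposited raw counts per gene symbol, whole numbers in 1 table. Reads were placed on mm10, per the submitters' processing notes, and the aligner, counting tool, annotation and use of strand were not given in the sources used here. Counts were fitted in R 4.3.3 with edgeR 4.0.16 (filterByExpr by group with a minimum count of 10, TMM factors of 1.17, 1.14 and 1.11 for the labelled control and 0.859, 0.858 and 0.915 for the labelled Batf-deficient libraries, glmQLFit with robust=TRUE, glmQLFTest, two-sided). All 6 samples entered the fit with group as the only term. Benjamini-Hochberg adjustment ran over the 15261 genes that passed the filter, and calls were made under 0.05. The fit was tested on simulated data in which few genes changed, equally in both directions. That test does not cover group differences as broad as those seen here. Every fold change sets labelled Batf-deficient over labelled control unless it says fold lower. CPM uses TMM-scaled totals and shares use plain totals. Nothing beyond the series design says that replicates came from separate animals, so p-values measure the spread between these samples.

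The members, gene lists, markers and lymphocyte panel were chosen with earlier results of these data known. Named were Batf, all mitochondrial protein genes, Sdha to Sdhd, Cycs, Cyc1, the 2 highest and 2 lowest fold changes of each nuclear complex, isoform sets, members under the filter, and of each related list the 2 lowest p-values in each direction with Tfam, Lrpprc, Slirp, Ppargc1a, Ppargc1b and Ucp2. Further members named for their role, and the 13 gene ratios (log2 of counts with 0.5 added), were chosen after values were seen. Exon lengths and coordinates are from GENCODE M21 on the same build, which held 98 of the 100 members, and promoters are from RefSeq, which held 68 of the 87 nuclear members. Counting intervals are 95% exact binomial. Same-numbered samples did not deviate together (r from 0.001 to 0.022), so the numbers were not used as pairs. Alternatives were RLE factors, library totals, panel scaling, acinar or mitochondrial rows out, no filter, DESeq2 1.42.0, limma voom 3.58.1, a replicate block, each sample left out, alike replicates summed and nuclear copies added.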

Additional observations from a re-analysis of the deposited data

Results flagged for a closer look

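A row of mitochondrial DNA outside the protein genes went against most members. mt-Rnr2, the large ribosomal RNA of the mitochondrion, read 9566, 13315 and 11525 CPM in the labelled control and 31838, 34925 and 19237 CPM in the labelled Batf-deficient ones, a mean of 11468 ± 1875 against 28667 ± 8311 CPM (SD, n = 3 each). It was higher in 3 of 3 labelled Batf-deficient libraries (edgeR log2 fold change 1.32 ± 0.23 SE, adjusted p = 0.00199). With panel scaling, which moves all genes down together, mt-Rnr2 turned to -1.14. Within a library, which no scaling moves, its counts were 17.1, 20.4 and 19.5% of those of the 13 protein genes in the labelled control and 73.2, 75.5 and 63.9% in the labelled Batf-deficient libraries. The small ribosomal RNA, mt-Rnr1, went the other way as a share of all counts, 0.127, 0.176 and 0.130% and 0.0940, 0.103 and 0.0525%.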

How the results depend on the processing

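All 30 named members that were lower stayed lower under every alternative run on them, and 27 of them stayed past the threshold in each. The exceptions were mt-Co2 with nuclear copies added, mt-Nd1 without the filter or without any labelled control library, and Cox4i2 without labelled Batf-deficient replicate 1 or 2 or with these summed. Library totals gave 3052 genes higher, medians of -1.31 for nuclear and -1.06 for mitochondrial members, and turned mt-Atp6 to -0.0094, mt-Co1 to -0.18, mt-Nd4l to -0.078, Uqcrh to -0.13, Cox7a2l to -0.315, Cox6c to -0.16, Atp5l to -0.32 and Atp5h to -0.27, by the construction of the scaling. Panel scaling gave 298 genes higher, 13302 lower, medians of -3.38 and -3.14 and 13 mitochondrial members lower, and turned Batf to -1.16 (adjusted p over all alternatives at most 0.000387), mt-Atp6 to -2.08, mt-Co1 to -2.25, mt-Nd4l to -2.15, Uqcrh to -2.21, Cox7a2l to -2.39, Cox6c to -2.24, Atp5l to -2.40, Atp5h to -2.35, Sdhaf2 to -1.41, Coa5 to -1.80, Polg2 to -1.03, Mtpap to -2.005, Gabpb1 to -1.10 and Nrf1 to -2.05. The turns under panel scaling also follow from its construction, since it moves all genes down together. Taking mitochondrial rows out put the median log2 fold change, nuclear members together, at -1.003, with Cox7a2l at -0.011 and Atp5l at -0.019. Nuclear copies turned mt-Atp6 to -0.22 and mt-Nd4l to -0.25. Cox8a read 0.0020 with limma voom. Ratios of labelled Batf-deficient over labelled control shares were 0.730 for all mitochondrial rows, 0.385 for nuclear members without acinar rows, and 1.685 for all mitochondrial rows over nuclear members.

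With 1 sample left out, 0 to 2 nuclear and 0 to 2 mitochondrial members were higher, the nuclear median ran from -1.06 to -0.89, and fold changes ran from -0.13 to 0.73 for mt-Atp6, -0.20 to 0.52 for mt-Nd4l, -0.24 to 0.053 for Ndufa2, -0.27 to 0.10 for Ndufa1, -0.017 to 0.21 for Cox7a2l, -0.083 to 0.22 for Atp5l, -0.050 to 0.19 for Atp5h, -0.13 to 0.15 for Cox8a and -0.44 to 0.053 for Atp5g2. The members higher were Cox6c and Uqcrh without labelled control replicate 3, and mt-Atp6 and mt-Co1 without labelled Batf-deficient replicate 3. The replicate block, on numbers that do not pair the samples, called 1 nuclear member higher (Cox6c, 0.23, edgeR adjusted p = 0.0475), left 69 nuclear and 8 mitochondrial members lower and put Cox8a at 0.011. The cause of these moves was not tested. Depth limits Ndufa4l2, Cox4i2, Cox6a2, Cox6b2, Cox6c2 and Ndufa11b, which had 80 counts or fewer in a group.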
